A study of Mus musculus with 12 samples.

Results

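A set of 9 genes of neutrophil granules and of the calgranulins was read in this mouse thymus series, 9 of the 19309 genes that had a probe set with a single gene symbol. They were chosen by name, as the genes S100a8, S100a9, Ltf, Camp, Ngp, Mpo, Elane, Mmp9 and Lcn2. Earlier results of these data were known at that choice, so shares of all genes set beside the 9 are descriptions. Each had 1 such probe set, so no choice between probe sets was needed. Whole-transcript Affymetrix arrays measured RNA of FVB/N thymus in 3 groups, on 12 arrays in all. Normal thymocytes (3 arrays) were wild type, with the age given as 24 dpn. Control tumors (5 arrays) were T-cell lymphomas induced by MYC with a genotype labelled wild type, taken at an age labelled Terminal. Dnmt3a-deficient tumors (4 arrays) were MYC-induced T-cell lymphomas in which the DNA methyltransferase gene Dnmt3a had been deleted in the hematopoietic compartment, also labelled Terminal. Both tumor groups thus carried MYC, and the normal group differed from them in age as well as in disease. The labels name neither the driver of MYC, nor the deleting recombinase, nor separate animals for the arrays, and a p-value here therefore reflects array-to-array spread, which may be technical.

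Neutrophils store antimicrobial proteins in granules that are filled in sequence as the cell matures: primary (azurophilic) granules at the promyelocyte stage, then specific granules, then gelatinase granules. S100a8 and S100a9 form calprotectin, a calcium- and metal-binding dimer that makes up much of the neutrophil cytosol and that acts outside the cell on the receptors Tlr4 and Ager. Transcription of these genes in maturing granulocytes depends on factors of the C/EBP family and on PU.1. Granulocytes are their main source, while several of them, Mmp9 and Lcn2 for example, are also made by other cells, macrophages and epithelium among them. In RNA of a whole tissue, fewer cells of a type and less RNA per cell cannot be told apart.

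The 250 bases before the annotated start of 4 of the genes are printed here because these 4 had the widest gaps among the tumor arrays and lie in a pair of genomic neighbourhoods. They come from the RefSeq promoter table for the mouse build GRCm38.p6, which held 8 of the 9 genes (Mmp9 was not matched). S100a8 lies at chr3:90668821-90669070 on the plus strand and S100a9 at chr3:90695722-90695971 on the minus strand. Ngp lies at chr9:110419558-110419807 and Ltf at chr9:111019042-111019291, both on the plus strand. Each is written 5′ to 3′ on the strand of its gene, with matches to the searched motifs in capitals.
S100a8: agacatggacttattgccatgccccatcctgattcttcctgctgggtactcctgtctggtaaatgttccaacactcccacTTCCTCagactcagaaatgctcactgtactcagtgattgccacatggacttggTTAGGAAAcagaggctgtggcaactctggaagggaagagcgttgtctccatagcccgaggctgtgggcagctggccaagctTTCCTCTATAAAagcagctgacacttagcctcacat
S100a9: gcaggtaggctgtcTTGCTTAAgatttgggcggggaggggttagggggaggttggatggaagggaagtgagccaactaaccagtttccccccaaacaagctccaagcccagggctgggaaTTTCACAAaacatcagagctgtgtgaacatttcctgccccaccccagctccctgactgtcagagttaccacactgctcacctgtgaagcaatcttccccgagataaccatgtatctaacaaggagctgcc
Ngp: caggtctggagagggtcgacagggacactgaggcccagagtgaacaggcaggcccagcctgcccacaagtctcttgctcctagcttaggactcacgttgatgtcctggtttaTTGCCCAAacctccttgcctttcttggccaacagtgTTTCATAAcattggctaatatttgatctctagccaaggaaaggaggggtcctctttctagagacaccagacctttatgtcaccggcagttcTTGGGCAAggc
Ltf: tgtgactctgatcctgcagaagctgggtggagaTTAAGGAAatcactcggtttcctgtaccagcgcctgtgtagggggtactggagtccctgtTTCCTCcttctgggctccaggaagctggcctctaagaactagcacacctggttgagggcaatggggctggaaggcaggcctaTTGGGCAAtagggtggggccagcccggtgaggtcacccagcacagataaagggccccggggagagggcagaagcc
Capitals mark a C/EBP-type motif (TTNNGNAA), a PU.1-type motif (GAGGAA) and a TATA box (TATAAA), each searched on both strands, so that TTCCTC is the PU.1-type motif of the other strand. The S100a8 window held 1 C/EBP-type match, 2 PU.1-type matches and 1 TATA match, and the second PU.1-type match ran directly into the TATA match. In the Ngp window there were 3 C/EBP-type matches and no PU.1-type match, in that of Ltf 2 and 1, and in that of S100a9 2 and 0. Over the 8 matched genes, 5 windows held the C/EBP-type motif, against 36.8% of 32851 mouse promoters of the same length. The PU.1-type motif was in 5 of 8 windows, against 23.3% of all promoters, and the TATA box in 1 of 8, against 12.4%. A match describes letters and is no evidence of binding.

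Arrays were comparable in their medians (6.40 to 6.58, log2) but not in their upper range. Values at the 75th percentile reached 8.50 to 8.60 on 6 arrays, namely all deficient tumors with control tumors 1 and 2. They reached 8.13 to 8.30 on the normal arrays with control tumors 3, 4 and 5. All normal arrays were thus on one side of this split and all deficient arrays on the other, so for these groups the split and the group cannot be told apart. Dnmt3a itself read 9.48 ± 0.15 (SD, n = 3) in normal thymocytes, 8.67 ± 0.53 (n = 5) in control tumors and 7.42 ± 0.20 (n = 4) in Dnmt3a-deficient tumors. Its highest value among the deficient arrays was 7.62, below the lowest control value of 8.19. The labels do not say whether its probes lie in the deleted part. Thymocyte markers averaged 11.16 to 11.25 in normal arrays, 9.75 to 10.64 in control tumors and 9.59 to 10.33 in deficient tumors. Of 12 such markers 6 fell in control tumors and 7 in deficient tumors against normal thymocytes, by limma. Among all 19309 genes 2187 fell in control tumors and 3660 (19.0%) in deficient tumors. Among those named after their values were seen, Ptcra, a chain of the pre-T-cell receptor, read 7.49 to 7.88 in normal arrays and 5.79 to 6.48 in tumors, Cd8a read 7.60 in control tumor 5, and Cd2 read 7.04 in deficient tumor 3.

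All 9 genes had their 2 highest values on the same pair of arrays, control tumors 3 and 4. This held for 9 of 9 granule and calgranulin genes and for 3.36% of all genes (648 of 19309). Averaged over the 9 genes, control tumor 3 read 8.54 and control tumor 4 read 8.51, while control tumors 1, 2 and 5 read 6.08, 6.27 and 5.92. The normal arrays lay between, at 6.88, 7.16 and 7.30. The Dnmt3a-deficient arrays read 5.62 to 6.31. For 7 of the 9 genes both arrays were at least 2-fold above each of control tumors 1, 2 and 5, which held for 0.274% of all genes. This pair was recognised from the values of these same genes, so the pattern is a description of 2 arrays and not a test of a group. The labels give no property that sets control tumors 3 and 4 apart from the other control tumors.

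**Figure D1:**
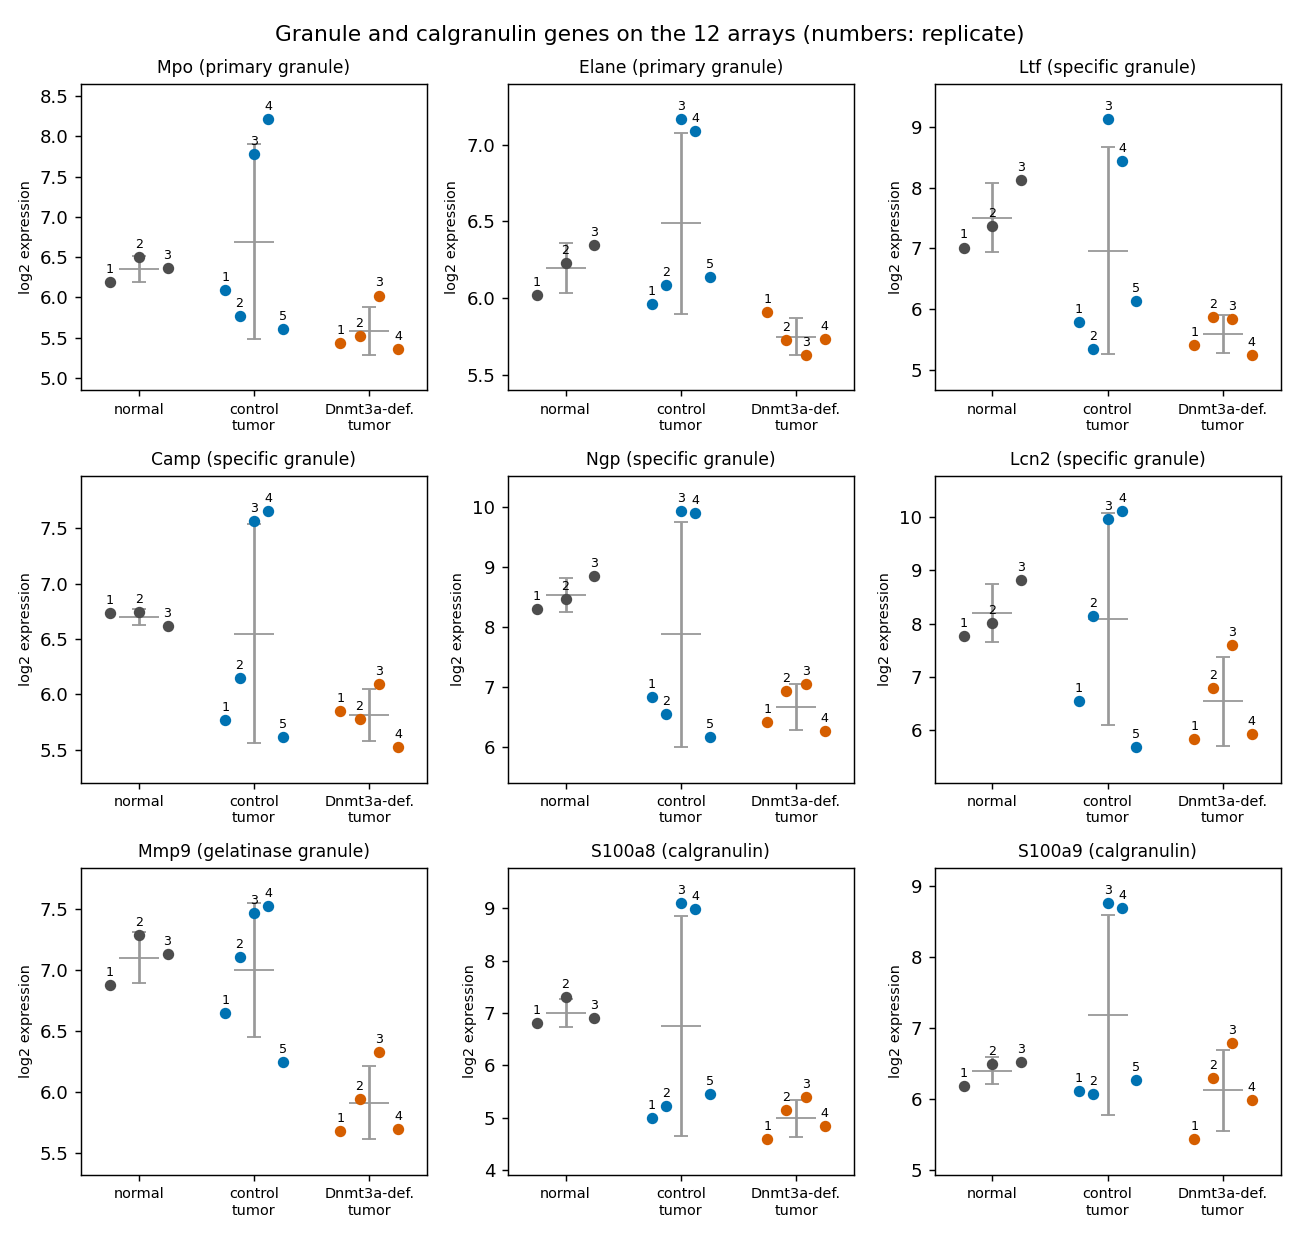
Deposited log2 expression of the 9 genes (y axis, a separate scale in each panel) on each array of the 3 groups (x axis), with points numbered by replicate and gray bars for the group mean ± SD. Control tumors 3 and 4 are the 2 highest points in each of the 9 panels, and the Dnmt3a-deficient points lie below the normal points in all panels but that of S100a9.

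Primary granule genes came first in maturation order. Mpo encodes myeloperoxidase, which makes hypochlorous acid, and read 6.19, 6.50 and 6.37 in normal thymocytes, 6.09, 5.77, 7.78, 8.21 and 5.60 in control tumors 1 to 5, and 5.43, 5.53, 6.02 and 5.36 in Dnmt3a-deficient tumors 1 to 4. The 3 normal values lay above all deficient values and above control tumors 1, 2 and 5, and below control tumors 3 and 4. The difference between deficient tumors and normal thymocytes was -0.77 (SE 0.536, adjusted p = 0.28 in limma's model over all 12 arrays). Deficient minus control tumors was -1.11 (SE 0.471, adjusted p = 0.212), and the 2 groups overlapped.

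Elane, the gene of neutrophil elastase, read 6.02, 6.23 and 6.34 in normal thymocytes. In control tumors Elane read 5.96, 6.08, 7.17, 7.09 and 6.14, and in deficient tumors 5.91, 5.72, 5.63 and 5.73. Elane was the 1 gene of the 9 whose deficient values all lay below all control values, with a gap of under 0.1 between deficient tumor 1 and control tumor 1. Such a separation occurred for 2.35% of all genes. The difference was -0.74 (SE 0.245), which did not pass limma's adjustment over all genes (adjusted p = 0.136). Elane had a two-sided exact permutation p of 0.0397 over the 126 splits of the 9 arrays, for this single gene. Mmp9 had a smaller one in the same permutation test, 0.0238.

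Specific granule genes spread more widely. Ltf, which encodes the iron-binding protein lactoferrin, read 7.02, 7.37 and 8.13 in normal thymocytes, 5.79, 5.35, 9.12, 8.43 and 6.13 in control tumors, and 5.41, 5.87, 5.85 and 5.25 in deficient tumors. Lactoferrin RNA was thus lower in every deficient tumor than in every normal array, and control tumors 1, 2 and 5 lay in or near the deficient range. Its deficient tumors differed from normal thymocytes by -1.91 (SE 0.750, adjusted p = 0.061 in limma), a mean 3.75-fold lower.

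Camp, the gene of the cathelicidin antimicrobial peptide, read 6.74, 6.74 and 6.62 in normal thymocytes, 5.77, 6.14, 7.56, 7.65 and 5.62 in control tumors, and 5.85, 5.78, 6.09 and 5.52 in deficient tumors. The 3 normal arrays had the narrowest spread of any of the 9 genes (SD 0.07), again above all tumors but control tumors 3 and 4. The deficient tumors differed from normal thymocytes by -0.89 (SE 0.438, adjusted p = 0.129 in limma).

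Ngp, neutrophilic granule protein, is a cystatin-like component of the granules. It read 8.29, 8.47 and 8.85 in normal thymocytes, 6.83, 6.54, 9.93, 9.91 and 6.17 in control tumors, and 6.41, 6.92, 7.05 and 6.27 in deficient tumors. No value lay between 7.05 and 8.29, so the arrays fell into those of normal thymocytes, the pair of control tumors 3 and 4 above them, and the other 7 tumors below. The lower of control tumors 3 and 4 was 8.48-fold above the highest of control tumors 1, 2 and 5. Deficient minus normal was -1.88 (SE 0.816, adjusted p = 0.0877 in limma), a mean 3.67-fold lower.

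Lcn2 encodes lipocalin 2, which binds bacterial siderophores. Its values were 7.77, 8.01 and 8.82 in normal thymocytes, 6.55, 8.13, 9.97, 10.11 and 5.67 in control tumors, and 5.83, 6.79, 7.60 and 5.92 in deficient tumors. Lcn2 differed from the other genes of specific granules in control tumor 2, where it stood within the normal range. Adipocyte markers stood at a mean of 7.84 in that array and at 5.18 to 5.31 in the other control tumors, with Fabp4 at 10.16 and Adipoq at 8.20 (both named after their values were seen). The monocyte and macrophage list was highest in the same array, at a mean of 7.39. The part of these markers in the Lcn2 value was not tested. Lcn2 in deficient tumors differed from normal thymocytes by -1.66 (SE 0.913, adjusted p = 0.17 in limma), a mean 3.17-fold lower.

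Mmp9 encodes gelatinase B, the protease of gelatinase granules. It read 6.88, 7.29 and 7.13 in normal thymocytes, 6.64, 7.10, 7.47, 7.52 and 6.24 in control tumors, and 5.68, 5.94, 6.33 and 5.70 in deficient tumors. Control tumors 3 and 4 exceeded the rest by little here, and 3 of 4 deficient tumors lay below all control tumors. Mmp9 fell in Dnmt3a-deficient tumors against normal thymocytes by 1.18 on the log2 scale (SE 0.283, adjusted p = 0.00542 in limma), 2.27-fold. Against control tumors the difference was -1.08 (SE 0.249, adjusted p = 0.0648), and it passed the threshold without control tumor 1, 2 or 5 (adjusted p = 0.0362, 0.0364 and 0.0208). Over the 9 leave-one-out fits its adjusted p ranged from 0.0208 to 0.204.

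Of the 9 genes the calgranulin S100a8 had the largest SD within control tumors (2.10). S100a8 read 6.80, 7.31 and 6.90 in normal thymocytes, 5.00, 5.22, 9.09, 8.99 and 5.45 in control tumors, and 4.59, 5.15, 5.40 and 4.84 in deficient tumors. The lower of control tumors 3 and 4 was 3.54 above the highest of the other control tumors on the log2 scale, and the other 7 tumors all lay below the normal arrays. Deficient minus normal was -2.01 (SE 0.903, adjusted p = 0.0974 in limma). S100a8 was under the 25th percentile of its array on control tumor 1 and on deficient tumors 1, 2 and 4. RMA shrinks differences in that range, so the sizes given for S100a8, here and below, are approximate. They are best read only for whether they reached 2-fold.

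S100a9, the partner of S100a8 in calprotectin, read 6.18, 6.50 and 6.52 in normal thymocytes, 6.11, 6.07, 8.75, 8.69 and 6.27 in control tumors, and 5.43, 6.29, 6.79 and 5.98 in deficient tumors. It shared the high values of control tumors 3 and 4, 5.35-fold or more above control tumors 1, 2 and 5. Unlike S100a8, its normal and deficient arrays overlapped, with deficient tumor 3 above all normal arrays. Deficient minus normal was -0.27 (SE 0.640, adjusted p = 0.767 in limma). The pair thus split the arrays alike at the top and differed in how far normal thymocytes stood above the remaining tumors.

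For 5 of the 9 genes (Mpo, Ltf, Camp, Ngp and S100a8) every normal array lay above control tumors 1, 2 and 5 and above all deficient tumors, a pattern of 14.8% of all genes. Lowest values were spread over 4 arrays: deficient tumors 1 and 4 held 3 each, control tumor 5 held 2 and deficient tumor 3 held 1. On control tumor 5 and deficient tumors 1 and 4 all 9 probe sets were under the array's median, and on control tumors 3 and 4 none were. Of the 9 only S100a8 was under the 25th percentile of an array, on the 4 arrays named above.

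The 9 genes followed each other closely over the 12 arrays. Pearson's r of each gene with the mean of the other 8 ran from 0.850 for Mmp9 to 0.979 for S100a8, a description over arrays that fall into separate clusters. Within control tumors the SD of the 9 genes was 0.55 to 2.10, with a median of 1.41, while the median SD of all genes was 0.28. Each of the 9 lay at or above the 86.4th percentile of genes by control tumor SD. Within normal and deficient arrays the median SD of the 9 was 0.21 and 0.31, against 0.19 for all genes in both groups.

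What differs in a MYC lymphoma that kept Dnmt3a was read first, as control tumors against normal thymocytes. None of the 9 genes passed (0 of 9 at limma's adjusted p under 0.05, where 24.4% of all genes passed), and 0 had an unadjusted p under 0.05, which 35.8% of all genes had. A fit of these 2 groups alone also called 0, and 19.5% of all genes. Differences were positive for 3 genes and negative for 6, from -0.66 for Ngp to 0.78 for S100a9, with a median of -0.11 against -0.08 over all genes. The largest of them, in S100a9, had an SE of 0.612 and an adjusted p of 0.395, and the smallest p that the exact permutation test of 5 against 3 arrays allows was 0.0179.

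This outcome rested on control tumors 3 and 4. Without them, a setting added after the values were seen and chosen by these genes' own levels, 4 of the 9 were called lower in the remaining control tumors, where 10.6% of all genes were. Those were Ngp (-2.03, SE 0.251), S100a8 (-1.78, SE 0.226), Ltf (-1.75, SE 0.297) and Camp (-0.86, SE 0.184). Mpo, Elane and S100a9 then turned negative, at -0.53, -0.14 and -0.25. Within the arrays of low 75th percentile, where control tumors 3, 4 and 5 stand against normal thymocytes, 0 were called and S100a9 differed by 1.50 (adjusted p = 0.083). In that comparison Ltf, Camp, Ngp, Lcn2 and S100a8 had positive differences, at 0.39, 0.24, 0.13, 0.39 and 0.84. Control tumors 3 and 4 make up most of its control arrays, so these signs are no separate check.

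In Dnmt3a-deficient tumors all 9 genes had lower means than in normal thymocytes. Mmp9 alone passed in the model over all 12 arrays (1 of 9, where 37.6% of all genes passed and 19.0% passed as lower), and 4 of 9 were lower at an unadjusted p under 0.05, as were 25.1% of all genes. The median difference was -1.18 against -0.10 over all genes, and 5 of the 9 means (S100a8, Ltf, Ngp, Lcn2 and Mmp9) were at least 2-fold lower. Ordered by size the differences ran from -2.01 for S100a8 to -0.27 for S100a9. For 8 of the 9, all but S100a9, every deficient array was below every normal array, as for 26.7% of all genes.

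The model over 12 arrays shares 1 estimate of the spread, to which control tumors 3 and 4 contribute. A fit of deficient tumors and normal thymocytes alone, which holds no control tumor, called 8 of 9 lower, where 23.2% of all genes were. The differences were the same and their errors were smaller: the SE of S100a8 was 0.209 in place of 0.903 (adjusted p = 4.92e-05), that of Ngp 0.220 in place of 0.816 (adjusted p = 1.03e-04) and that of Ltf 0.263 in place of 0.750 (adjusted p = 2.77e-04). Camp (adjusted p = 0.00106), Mpo (0.00612), Lcn2 (0.00923) and Elane (0.0224) passed there too, and S100a9 did not (0.444). Leaving out control tumors 3 and 4 from the model called 8, where 19.5% of all genes passed as lower. That pair was chosen by these genes' own values, so leaving it out narrows their spread in particular. This count is therefore no separate support. With 4 arrays against 3 the exact permutation test cannot go below 0.0286, the value of Elane, Ltf, Camp, Ngp, Mmp9 and S100a8, while Mpo and Lcn2 had 0.0571.

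**Figure D2:**
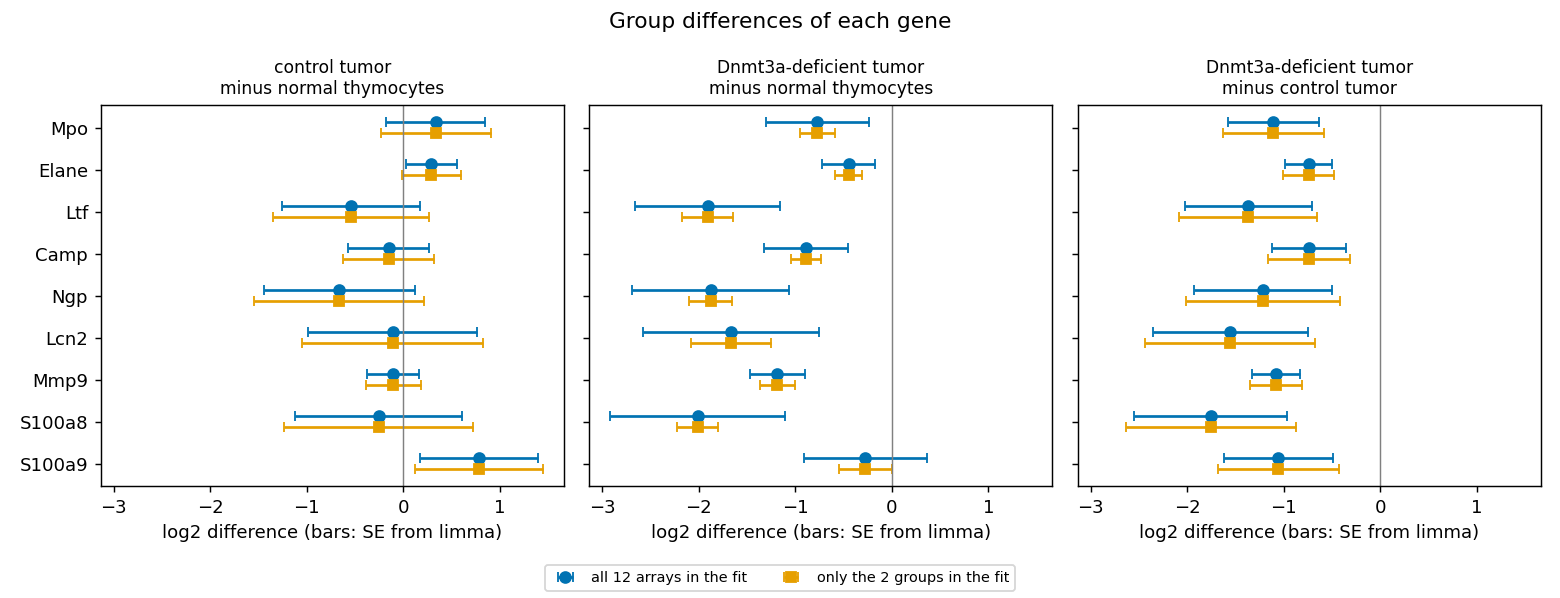
Difference between group means of each of the 9 genes (x axis, log2) in the 3 comparisons, with bars of 1 SE from limma, for the fit over 12 arrays (blue circles) and for the 2 compared groups alone (orange squares). In the middle panel the points coincide while the error of S100a8 shrinks from 0.903 to 0.209, and in the right panel all 9 points lie below 0.

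Dnmt3a-deficient and control tumors differ in the loss of Dnmt3a, and here all 9 genes again had lower means in deficient tumors. The differences ran from -1.76 for S100a8 to -0.74 for Camp and Elane, with a median of -1.11 against -0.01 over all genes, and 7 of 9 were at least 2-fold. S100a8 averaged 4.99 ± 0.35 (SD, n = 4) in deficient tumors against 6.75 ± 2.10 (n = 5) in control tumors, so the SD of the control tumors exceeded the difference. Lcn2 differed by -1.55 (SE 0.802), Ltf by -1.37 (SE 0.658), Ngp by -1.21 (SE 0.717) and S100a9 by -1.05 (SE 0.562). None passed (0 of 9, adjusted p from 0.0648 to 0.352 in limma, where 0.818% of all genes passed), and the fit of the 2 groups alone called 0 (0.00518% of all genes). At an unadjusted p under 0.05, 4 of 9 were lower, as were 7.58% of all genes. Of the 158 genes that passed, 114 were higher and 44 lower in deficient tumors. That split was 57 and 45 when arrays were quantile-normalized again, 86 and 56 after cyclic loess and 258 and 48 after median centring. Both comparisons of deficient tumors use the same 4 arrays, and both comparisons of control tumors the same 5, so their values are not independent.

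Values of control tumors 3 and 4 carried a part of these differences that varied by gene. The pair was recognised as the 2 highest arrays of these same genes, so leaving it out must make every difference less negative. Only the size of that change is described here. For Mmp9, at -1.08 with all arrays, it was small. Without both, 0 of 9 were called (0.0311% of all genes were) and the differences shrank to between -0.75 for Mmp9 and 0.15 for Ngp. S100a8 then differed by -0.23, Mpo by -0.24, Elane by -0.31 and Lcn2 by -0.25. Within the arrays of high 75th percentile 0 were called. These set the 4 deficient tumors against control tumors 1 and 2, and so leave out the pair as well. Mmp9 differed there by -0.96 and Lcn2 by -0.81, while Ltf and S100a9 turned to 0.03.

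The other genes of neutrophils were read from lists, with 102 of 114 entries measured. Of 9 further primary granule genes, 3 (among them Prtn3 and Lyz1) had control tumors 3 and 4 highest, and of 16 further specific and gelatinase granule genes 3 did. Among 20 genes of the mature neutrophil surface and cytosol there were 10, and 5 of those were at least 2-fold above control tumors 1, 2 and 5. The phagocyte oxidase had 2 of 5 such genes, and the inhibitors and partners of granule proteins had 1 of 7 (Tfrc). The count was 0 of 9 granulocyte transcription factors, 0 of 9 calgranulin receptors and signaling genes, 0 of 13 recruiting ligands and 0 of 14 other S100 genes. As 3.36% of all genes had both arrays highest, a count of 0 on lists of this size is near the background.

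Several list genes are named here after their values were seen. Chil3, a chitinase-like lectin of specific granules, read 8.77 in control tumor 3 and 9.16 in control tumor 4, and 4.62 to 6.38 elsewhere. Anxa1, a regulator of neutrophil migration, read 9.09 in control tumor 3 and 4.87 to 6.48 outside the pair. Ifitm6 read 7.87 and 7.75 in the pair. Lyz1, a lysozyme, read 9.94 and 9.92, and Mcemp1 read 7.25 and 7.76. These 5 genes were picked for high values on that pair, and on the same lists other genes were highest in another control tumor. The lower of control tumors 3 and 4 minus the highest of control tumors 1, 2 and 5 was -3.49 (log2) for Dgat2, -2.88 for Orm1, -2.84 for Hp, -2.74 for Hdc and -1.76 for Lrg1. That highest array was control tumor 5 for Hdc (9.15). It was control tumor 2 for Dgat2 (10.23), Orm1 (8.03), Hp (10.11) and Lrg1 (7.71). A negative value here need not mean low values on the pair. Hp read 7.27 and 9.11 there, above the 5.76 to 6.43 of normal thymocytes, and Dgat2 read 6.74 and 6.93, within the normal 6.46 to 7.02.

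**Figure D3:**
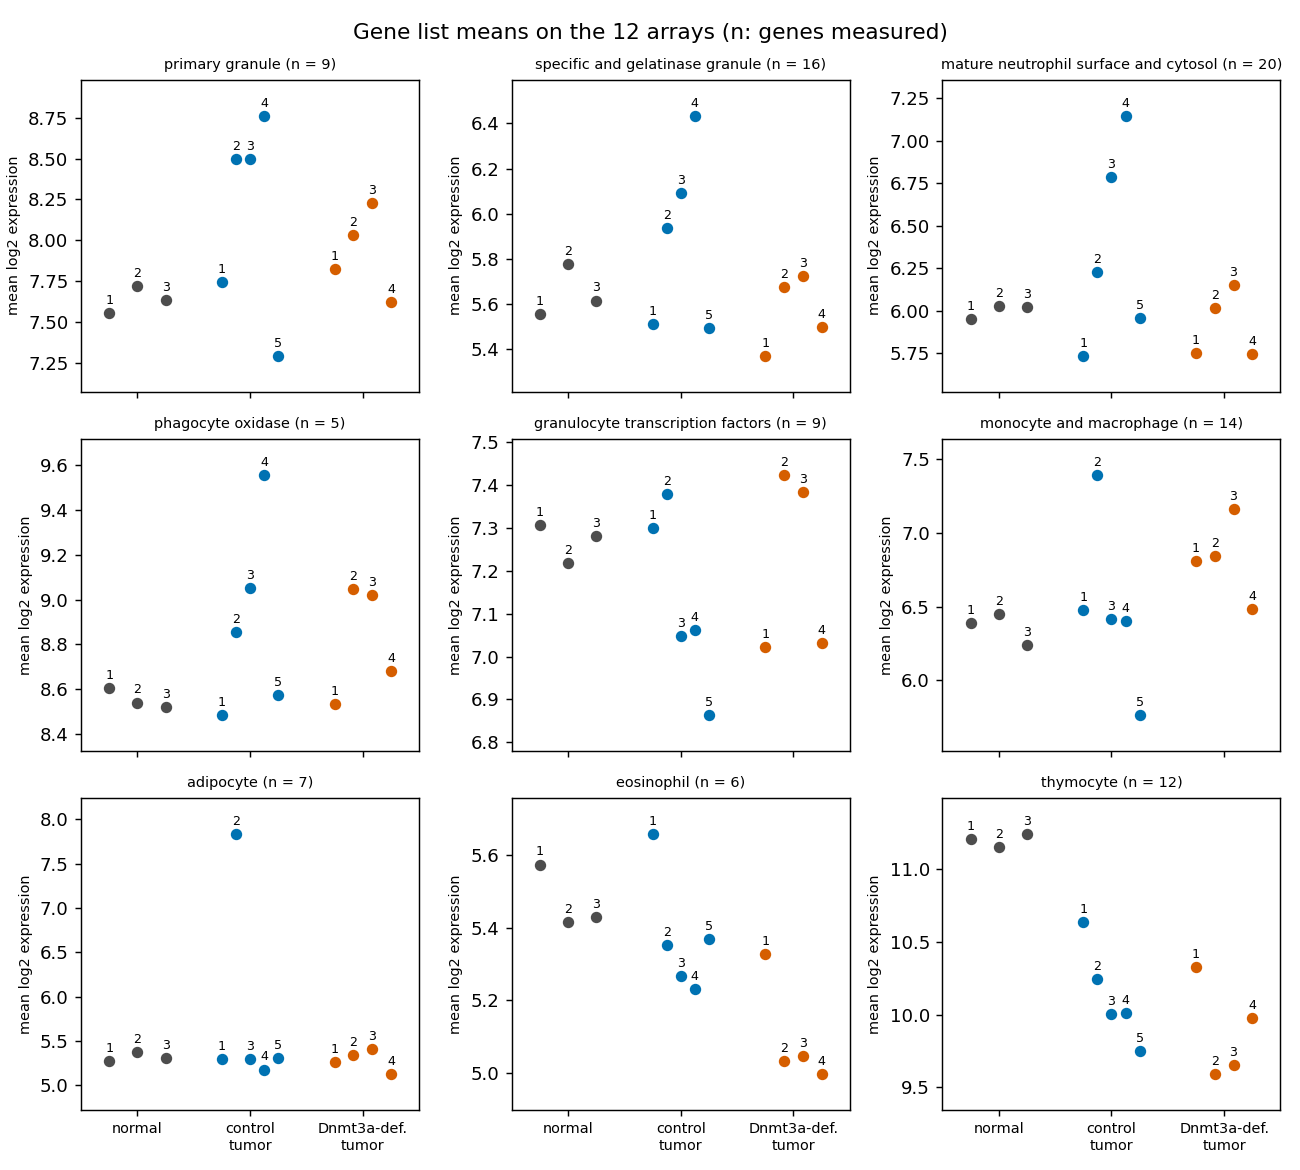
Mean log2 expression of 9 gene lists (y axis, a separate scale in each panel) on each array of the 3 groups (x axis), with points numbered by replicate. The mature neutrophil list reads 6.79 and 7.15 in control tumors 3 and 4, the adipocyte list 7.84 in control tumor 2, and the monocyte and macrophage list 7.39 in control tumor 2 against 6.42 and 6.41 in control tumors 3 and 4.

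Calls on these lists are read against the shares of all genes: 24.4% passed in control tumors against normal thymocytes, and 18.7% as higher and 19.0% as lower in deficient tumors. Among primary granule genes 1 of 9 rose and 1 fell in control tumors, and 2 rose and 1 fell in deficient tumors. Of specific and gelatinase granule genes 0 passed in control tumors, and in deficient tumors 1 rose and 2 fell. The fit of deficient tumors and normal thymocytes alone, which called 21.6% of all genes higher and 23.2% lower, called 1 higher and 6 lower of 16 specific and gelatinase granule genes. The same fit called 4 higher and 1 lower of 9 primary granule genes, and 3 higher and 2 lower of 20 mature neutrophil genes. The median of the specific and gelatinase list in deficient minus normal was -0.16, and that of primary granule genes was 0.73, where all genes had -0.10.

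In the mature neutrophil list 2 genes rose and 1 fell in each tumor group against normal thymocytes. The integrin chains moved apart: Itgam, which pairs with Itgb2 in the receptor Mac-1, rose by 1.22 in control tumors (adjusted p = 0.00157 in limma) and by 0.86 in deficient tumors (adjusted p = 0.0129, and 0.0754 without normal array 2). Itgb2, a chain that lymphocytes share, fell by 1.58 and by 2.32 (adjusted p = 0.00344 and 2.09e-04). Padi4, the arginine deiminase of neutrophil extracellular traps, went against the 9 genes and rose in deficient tumors, where it read 9.40, 8.51, 8.71 and 7.41, above all other arrays (5.85 to 6.92). The rise was 2.36 against normal thymocytes (SE 0.369, adjusted p = 2.74e-04) and 2.21 against control tumors (SE 0.324, adjusted p = 0.0144). In the fit of the 2 tumor groups alone the latter had an adjusted p of 0.0595, and without control tumors 3 and 4 it had 0.0722.

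Of the 5 phagocyte oxidase genes 1 passed in control tumors and 0 in deficient tumors. That gene, Cybb, the catalytic subunit, rose by 2.07 in control tumors (SE 0.633, adjusted p = 0.0298 in limma), read 9.36 and 10.20 in control tumors 3 and 4, and lost its call without those arrays (1.11, adjusted p = 0.062) and in the fit of the 2 groups alone (adjusted p = 0.0652). Without normal array 1, 2 or 3 its adjusted p was 0.083, 0.118 and 0.0559, and without control tumor 3 it was 0.0633. Of 9 transcription factors 0 passed in control tumors and 1 fell in deficient tumors. Cebpe, the C/EBP factor of specific granule genes, fell by 0.81 (SE 0.275, adjusted p = 0.0338) and its call was lost under cyclic loess (adjusted p = 0.114) and when arrays were quantile-normalized again (adjusted p = 0.0625). It was also lost without normal array 2 or 3 (adjusted p = 0.0578 and 0.176) and without deficient tumor 1, 2 or 4 (adjusted p = 0.076, 0.0677 and 0.0719).

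Among 9 calgranulin receptors and signaling genes 0 passed in control tumors, and in deficient tumors 1 rose and 1 fell. Ager, the receptor for advanced glycation end products, fell by 0.78 (SE 0.137, adjusted p = 6.32e-04), and Bsg, a further S100a9 receptor, rose by 1.39 (SE 0.400, adjusted p = 0.0152). Bsg had an adjusted p of 0.0513 without normal array 2. It read 10.46 to 10.71 in deficient tumors, 10.57 and 10.69 in control tumors 1 and 2, 8.95 to 8.997 in control tumors 3 to 5 and 9.12 to 9.25 in normal thymocytes, so that it was high on the same 6 arrays as the 75th percentile. The part of that split in its call was not tested. Tlr4, named after its values were seen, passed in neither, with adjusted p of 0.188 in control tumors and 0.552 in deficient tumors.

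Among 13 recruiting ligands Cxcl12, the chemokine that holds neutrophils in the marrow, fell in control tumors by 0.53 (adjusted p = 0.00432 in limma) and in deficient tumors by 0.46 (adjusted p = 0.00945). The second of these was lost under cyclic loess (adjusted p = 0.16) and when arrays were quantile-normalized again (adjusted p = 0.0552). Ccl3, a chemokine of macrophages and T cells, rose in deficient tumors by 1.64 (adjusted p = 0.00409). Of the other S100 genes 1 of 14 fell in control tumors and 3 in deficient tumors, near the 19.0% of all genes that fell there, 0 rose, and S100a13 fell in both, by 1.06 and 1.59 (adjusted p = 4.09e-04 and 1.75e-05). Among 7 inhibitors and partners of granule proteins 2 rose and 1 fell in control tumors, and 1 rose and 1 fell in deficient tumors. Tfrc, the transferrin receptor of dividing cells, rose in both, by 3.20 (SE 0.341, adjusted p = 2.33e-05) and 2.73 (SE 0.356, adjusted p = 6.89e-05), and Slc22a17, a receptor of lipocalin 2, fell in deficient tumors by 0.66 (SE 0.131, adjusted p = 0.00159).

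Markers of other cell types were read beside the 9 genes, with 119 of 137 entries on 13 lists measured. On 11 of the lists 0 genes had control tumors 3 and 4 as the 2 highest arrays, and 1 gene did on each of the natural killer cell and progenitor lists. As 3.36% of all genes had both arrays highest, counts of 0 on lists of this size are near the background. Of 14 monocyte and macrophage markers 0 had control tumors 3 and 4 highest. Their mean was 6.42 and 6.41 in these arrays against 5.77 to 7.39 in the other control tumors and 6.24 to 6.45 in normal thymocytes. Single markers, named after their values were seen, went both ways. C1qb read 6.28 and 6.24 in control tumors 3 and 4 and 6.80 to 7.30 in normal thymocytes. Mpeg1 read 7.97 and 8.51 against 6.66 to 7.22, Cd68 8.67 and 9.47 against 8.12 to 8.44, and Csf1r 7.55 and 8.80 against 6.88 to 7.32. In control tumor 2 C1qb, Mpeg1 and Cd68 were higher still, at 10.16, 8.55 and 9.66. The part of macrophage transcripts in the values of the 9 genes was not tested. Summed over its 14 genes that list ran from 87.34 to 90.33 in normal arrays, 80.74 to 103.53 in control tumors and 90.77 to 100.28 in deficient tumors. The 6 eosinophil markers averaged 5.27 and 5.23 in control tumors 3 and 4, under the 5.35 to 5.66 of the other control tumors.

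The genes most like the 9 were ranked by Pearson's r with their mean over the 12 arrays, after each gene's own mean had been subtracted. Retnlg, a resistin-like protein of neutrophils, came first (r = 0.954) and read 7.58 and 6.99 in control tumors 3 and 4, 4.67 to 5.70 in deficient tumors and 5.35 to 6.07 in normal thymocytes. Icosl (0.946), Cd177 (0.941), Trem3 (0.939), Tacc1 (0.937), P4ha3 (0.934), Tbx3 (0.913), Cndp2 (0.907), Myl9 (0.905) and Ctss (0.904) followed. Retnlg and Cd177 were on the neutrophil lists, and the other 8 were on none. These correlations share a pair of high arrays, and for some genes they also rest on normal arrays that stood above the tumors outside that pair. Cndp2 read 9.27 to 9.35 in normal thymocytes and 8.35 to 8.85 in those tumors, and Ctss 9.34 to 9.66 and 7.29 to 8.43.

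**Figure D4:**
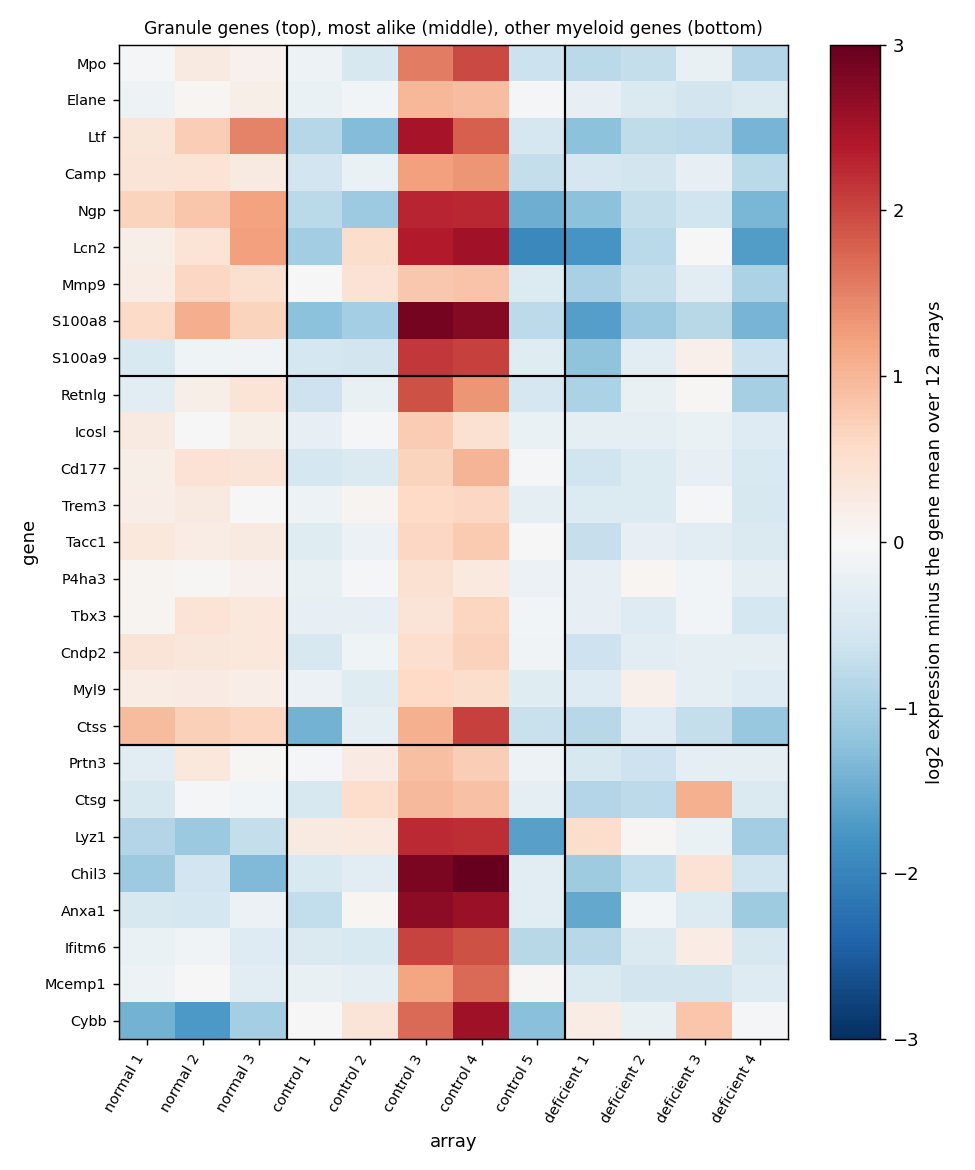
Log2 expression minus each gene's mean over the 12 arrays (color) for the 9 genes, the 10 most alike genes and 8 further myeloid genes (rows) on each array (columns, grouped by black lines), with values past 3 drawn as 3. The 9 genes are highest in the columns of control tumors 3 and 4, and Ltf, Ngp and S100a8 are red on the normal arrays and blue on the deficient arrays.

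S100a8 and S100a9 are neighbouring coding genes on chromosome 3, and S100a7a, the next on the other side of S100a8, was not raised in control tumors 3 and 4: its lower value there was 0.03 under the highest of control tumors 1, 2 and 5. Camp, Ngp and Ltf lie on chromosome 9 with 28 other coding genes between Camp and Ltf. Of the 27 measured among those, 0 had control tumors 3 and 4 as the 2 highest arrays, near the 3.36% of all genes. Ccrl2, which neighbours Ltf on its other side, did have a lower value of that pair 0.55 above the highest of control tumors 1, 2 and 5. Elane neighbours Prtn3, the gene of proteinase 3, which read 6.73 and 6.57 on the high pair of arrays and 6.07 or less on the remaining control arrays. Ccrl2 and Prtn3 are named after their values were seen.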

How the data were processed

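RNA of 12 thymus samples was extracted with Trizol, repurified, amplified and biotin-labeled, and hybridised to Affymetrix whole-transcript arrays, per the labels' protocols. The deposited values are log2 expression per probe set, to which the authors applied RMA. Per the submitters' processing notes the software was Affymetrix Expression Console, with no version named. RMA shrinks differences near background, and no count or depth lies behind a value, so the number of arrays limits the precision.

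Of 23858 probe sets 20870 had 1 gene symbol, 1453 several and 1535 none. Symbols were updated through RefSeq (20822 matched), and 849 genes with several sets were read from the set with the highest mean over 12 arrays. Groups came from the sample labels. The test was limma 3.58.1 in R 4.3.3 (lmFit, eBayes, 1 model of 3 group means, 9 residual degrees of freedom), two-sided, with Benjamini-Hochberg adjustment over 19309 genes and a threshold of 0.05. On simulated data, over the 3 comparisons, it recovered 1.49 to 11.9% of log2 changes of 0.5. It recovered 64.2 to 80.6% of changes of 1 and 93.9 to 100% of changes of 2. The changed genes were drawn from all genes, while the granule and calgranulin genes varied more than most in control tumors. These shares therefore do not give the recovery for those genes. Exact permutation tests over arrays were run for single genes. Alternatives were 3 normalizations, a filter on dim genes, another probe set rule, another prior, array weights, 2-group fits, a replicate block, arrays of like 75th percentile and leaving out arrays.

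Named genes were the 9, Dnmt3a, up to 4 called genes per list and comparison, and the 10 genes most alike; others, including the cell type markers and neighbours given by name, were named after their values were seen. The members and lists were chosen with earlier results of these data known. Promoters are from RefSeq (GRCm38.p6).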

Additional observations from a re-analysis of the deposited data

Results flagged for a closer look

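Among 40 groups of tumor arrays tested for a value far from the others, 1 was found, and chance gives about 1 in 20. Trem3, a receptor of myeloid cells among the 10 genes most like the granule genes, read 5.36 in Dnmt3a-deficient tumor 3 and 4.94 to 5.01 in the other deficient tumors. The gap to the nearest was 0.833 of the range of the group.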

How the results depend on the processing

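For Dnmt3a-deficient tumors against normal thymocytes, 1 of the 9 genes was called in the model over 12 arrays (19.0% of all genes called lower). That count was 8 with the 2 groups alone (23.2% of all genes called lower). It was 8 without control tumors 3 and 4 (19.5% called lower), an alternative chosen after seeing these genes' values. It was 5 with array weights, and 2 of the 5 left when the dimmest 50% of genes were removed, which tests fewer genes. For deficient against control tumors 0 became 5 with array weights and 1 with the dimmest 50% removed. With array weights the count of all genes called rose as well, as given below. For control tumors against normal thymocytes 0 became 4 without control tumors 3 and 4 (10.6% of all genes called lower). Leaving out 1 array gave 1 to 1, 0 to 1 and 0 to 0 in the same order. The 3 normalizations moved none of these counts and turned no difference of the 9 genes. The other prior and the other probe set rule also moved none of these counts. Neither could turn a difference, as a prior changes only the error and each of the 9 genes has 1 probe set.

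Replicate numbers do not pair the arrays: deviations from the group means of same-numbered arrays correlated at -0.13 to 0.34, and 3 of 12 arrays were closest to their own number. With the replicate number as a block, 5 of 9 genes were called in deficient tumors against normal thymocytes, 1 against control tumors, and Lcn2 (0.36) and Mmp9 (0.065) turned positive in control tumors against normal thymocytes. The block changed the count of all genes called in deficient against control tumors from 158 to 104. Counts of the 9 given without a share of all genes, here and in the paragraph above, are not read as results about these genes.

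Differences of control tumors from normal thymocytes changed sign most. With array weights they were 0.068 for Ltf, 0.14 for Camp, 0.38 for Lcn2, 0.036 for Mmp9 and 0.48 for S100a8. Within the arrays of low 75th percentile, which hold control tumors 3 and 4, they were 0.39 for Ltf, 0.24 for Camp and 0.13 for Ngp. There Lcn2 had 0.39 and S100a8 had 0.84. Without control tumors 3 and 4 they were -0.53 for Mpo, -0.14 for Elane and -0.25 for S100a9. Leaving out 1 array gave -0.62 to 0.49 for Lcn2, -0.43 to 0.082 for Camp, -0.84 to 0.18 for S100a8, -0.042 to 0.61 for Mpo and -0.23 to 0.085 for Mmp9. For deficient against control tumors, Ltf was 0.025 and S100a9 0.030 within the arrays of high 75th percentile, which lack control tumors 3 and 4. Ngp was 0.15 when only that pair was left out. The causes were not tested.

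All genes called in deficient against control tumors (158) numbered 102 after another quantile normalization, 306 median-centred, 3328 with array weights, 1 with the 2 groups alone, 7 within the arrays of high 75th percentile, 6 without control tumors 3 and 4, and 16 to 1482 leaving out 1 array. The 3 to 5 arrays of a group and the wide spread of control tumors limit what these comparisons can show.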
